A study of Caenorhabditis elegans with 2 samples.

Results

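The col genes encode cuticle collagens of the nematode Caenorhabditis elegans, and 156 of the 19973 protein-coding genes in the WBcel235 annotation have a name that begins with col-. Membership was set by the name, and the family was picked with earlier results of these data known. For each, every region of the authors' 4 peak lists in the ce11 build was taken whose summit lay within 2000 bp of the gene start. The lists come from chromatin immunoprecipitation and sequencing (ChIP-seq) of ZAG-1, the worm relative of ZEB proteins, which binds DNA through zinc fingers and a homeodomain and is known for its part in neuron differentiation. There is 1 group with 2 biological replicates, both of strain OP83 at the L4 larval stage, males and females pooled and age not known. Both carry the integrated transgene wgIs83, which expresses eGFP-tagged zag-1, and the unc-119(ed3) mutation on chromosome III. The worms were taken whole, so the tissue in which a region was bound is not resolved. The transgene is 1 insertion, no list from worms without it was used here, and the antibody field of the labels names zag-1.

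The cuticle is an extracellular coat that the epidermis (hypodermis) lays down anew at each larval moult. Most of its protein is collagen, made from a large family of short genes whose products fold into a triple helix through repeats of glycine followed by any other pair of residues. Prolyl 4-hydroxylases, disulphide isomerases, proteases and peroxidases then modify, trim and cross-link the chains, and sets of collagen genes are transcribed in waves through each larval stage. Not every gene named col- makes a cuticle collagen: col-99 encodes a transmembrane collagen.

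The list of peaks kept by the reproducibility analysis (irreproducible discovery rate, IDR) holds 246 regions, the pooled list 4010, replicate 1 11750 and replicate 2 30000. The last 3 are labelled as peaks and background, and only 394, 365 and 4453 of their regions have a q-value of 0.1 or less, so a listed region is not by itself a binding site. The signal value of a region is the authors' own score and has no replicate error. It was used within a list, and ranks are by signal, with 1 the strongest. The lists hold no read counts, so read depth is unknown. With 1 group and 2 replicates no test over samples can be made. Counts of col genes are given beside the same count over all protein-coding genes where that count was made.

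Both IDR peaks near col genes lie beside short RNA genes, and neither lies at a col promoter. The col-94 peak is in an intron of dhc-4, a dynein heavy chain gene on the other strand within which col-94 is nested, and its summit is 31 bp from the start of an snRNA gene (WBGene00014543; W05B2.8 in RefSeq). The col-181 peak is between genes, 154 bp past the end of col-181, and its summit is 37 bp from the start of a tRNA-Lys gene (WBGene00014540, X:12106147-12106219, minus strand; W03G11.t1 in RefSeq). The col-181 stretch, X:12106107-12106403, was read on the plus strand of RefSeq's WBcel235 genome around the summit, with the tRNA gene in capitals, and shows that the whole of that gene falls inside it.
col-181 peak: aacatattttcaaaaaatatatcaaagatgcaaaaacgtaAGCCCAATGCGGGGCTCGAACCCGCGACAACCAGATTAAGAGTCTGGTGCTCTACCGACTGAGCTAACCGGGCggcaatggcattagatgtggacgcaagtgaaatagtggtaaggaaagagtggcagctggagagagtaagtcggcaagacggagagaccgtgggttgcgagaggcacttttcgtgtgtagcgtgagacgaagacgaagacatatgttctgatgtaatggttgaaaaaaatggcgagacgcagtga

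The snRNA copy near col-94 is 1 of 14 genes that the annotation gives the same name, and all 14 have identical sequences of 102 bp. Of these 14, 1 had an IDR or pooled summit within 100 bp of its start, the copy near col-94. Reads from inside identical copies cannot be told apart. In col-94 itself, 83.9% of 32-base words occur more than once in the genome. In the window of 100 bp to each side of the summit, 25.9% of 32-base words occur more than once, and at the col-181 summit 22.9%. Among all 246 IDR summits, 21 (8.54%, Wilson 95% interval 5.65 to 12.7, which covers counting error only) lay within 100 bp of the start of a tRNA, snoRNA, snRNA, rRNA or miRNA gene, 8 of them of a tRNA and 6 of an snRNA gene. In the pooled list the share was 2.67% (interval 2.21 to 3.21).

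At col-94 (III:10986808-10987873, minus strand) the summit lay 1775 bp upstream of the col start, with a signal of 72.4 in the IDR and pooled lists, rank 66 in each. The strongest region within 2000 bp had a signal of 47.5 and rank 63 in replicate 1, and 28.5 and rank 77 in replicate 2. Their summits were 6 bp apart. It was thus in the first 100 regions of all 4 lists, which in the IDR list of 246 regions is 26.8% of the way down. A second, weaker pair of regions overlapped the snRNA gene and extended past it, with rank 1927 in replicate 1 and 8635 in replicate 2.

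At col-181 (X:12104930-12106102, plus strand) the summit lay 1326 bp downstream of the col start, with a signal of 55.4 and rank 129. Replicate 1 had a signal of 38.2 there, at rank 112, and replicate 2 had 11.9, at rank 3742. Both replicates had regions at this place, and their summits were 76 bp apart, but it ranked far lower in replicate 2. Without replicate 1, among the 246 strongest regions of replicate 2, col-94 was the only col gene left, whereas both genes were among the 246 strongest of replicate 1.

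**Figure D1:**
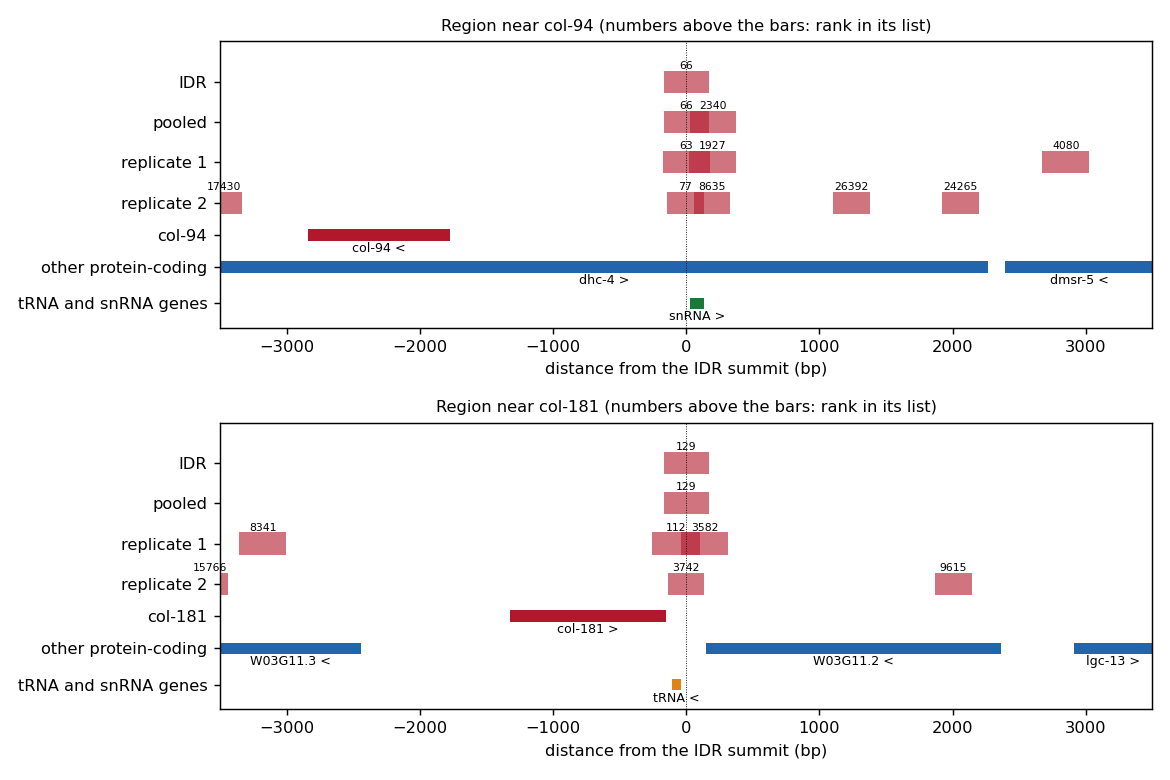
Regions of the 4 lists (bars, with rank in the list above each) and annotated genes around the IDR summits near col-94 and col-181, by distance from the IDR summit in bp; > and < give the strand. At col-94 a region overlaps the snRNA gene in each list, with ranks 66, 66, 63 and 77. At col-181 a region lies at the tRNA gene, with ranks 129, 129, 112 and 3742.

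The col genes were near listed regions about as often as other genes, with differences that were not alike in both replicates. In the IDR list 2 of 156 (1.28%) had a summit within 2000 bp of the start, against 1.46% of all protein-coding genes. In the pooled list 19 had one (12.2% against 15.5%). In replicate 1 there were 75 (48.1% against 38.7%) and in replicate 2 there were 109 (69.9% against 71.3%). The col share was thus above the background in replicate 1 and below it in replicate 2 and in the pooled list. The direction in replicate 2 turned with the length of the list: among the 4010 strongest regions of each replicate, as many as the pooled list has, the col share was 17.3% against 15.6% in replicate 1 and 16.7% against 15.4% in replicate 2.

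The higher share in replicate 1 was not seen next to the starts: within 500 bp 21 col genes had a summit (13.5% against 14.1%). Within 1000 bp 45 had one (28.8% against 23.7%), and in the stronger 50% of the list 38 had one within 2000 bp (24.4% against 21.8%). The median rank of the 98 distinct summits near col genes was at 62.2% of the list, against 49.3% for summits near any protein-coding gene. With a q-value of 0.1 or less, 3 col genes had a region in replicate 1 (1.92% against 1.94%) and 27 in replicate 2 (17.3% against 16.9%).

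**Figure D2:**
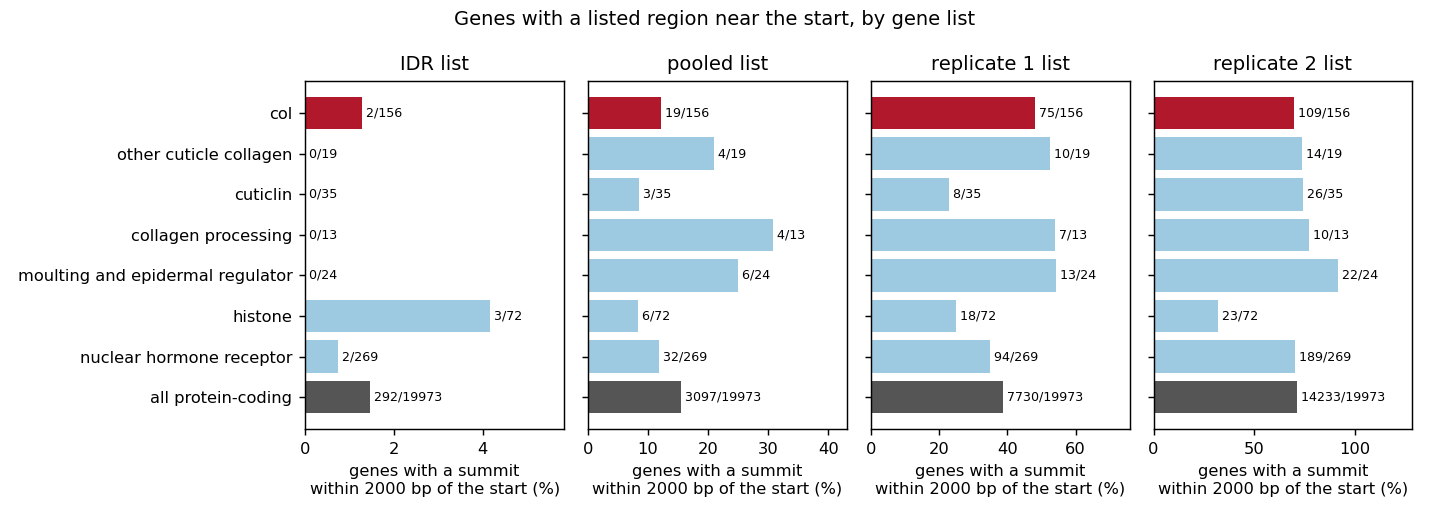
Share of genes (%) with a summit within 2000 bp of the start, for col genes (red), other gene lists (blue) and all protein-coding genes (grey), in each peak list; numbers beside the bars are genes with a summit of genes in the list. The col share is 1.28% in the IDR list and 12.2% in the pooled list, against 1.46% and 15.5% of all protein-coding genes.

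Of the 156 genes, 54 had a summit in both replicates, 21 in replicate 1 alone, 55 in replicate 2 alone and 26 in no list. The last group includes col-12, col-13, col-17 and col-20, named here after their values were seen. Of their 32-base words, 71.7%, 83.5%, 29.7% and 2.84% occur more than once in the genome. The part of such repeats in the missing regions was not tested. The split of genes by replicate was not counted over all protein-coding genes. Of those, 38.7% had a summit in replicate 1 and 71.3% in replicate 2, so the split is no result about col genes. Regions of both replicates overlapped by at least 1 bp near 27 col genes (17.3%, against 14.7% of all protein-coding genes), and near 13 of them the summits were within 100 bp of each other (8.33% against 8.26%). When each replicate was held to its 4010 strongest regions, 2 col genes had overlapping regions (1.28% against 3.13%). Those were col-94 and col-181.

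**Figure D3:**
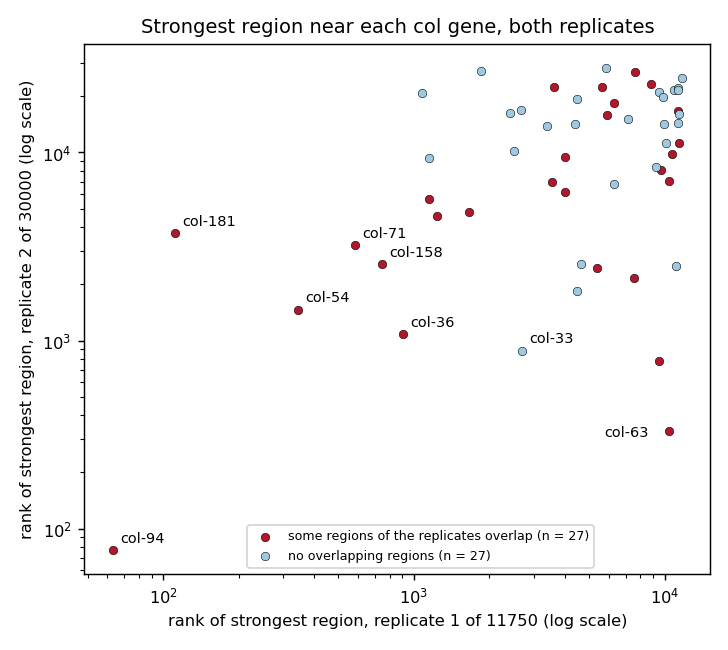
Rank of the strongest region within 2000 bp of the start in replicate 1 (x axis) and replicate 2 (y axis), both on log scales, for the 54 col genes with a region in both; red marks the 27 genes where some regions of the replicates overlap. At the lower left col-94 stands alone with ranks 63 and 77.

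Below the IDR set, 17 further col genes had a pooled summit. The highest ranked was at col-71 (II:3500077-3502570, minus strand), with a signal of 34.3 and rank 580, 318 bp upstream of its start. The nearest protein-coding start there is not that of col-71 but of Y49F6B.2, 80 bp away, and no short RNA gene start was closer than 1067 bp. The strongest regions near col-71 had a signal of 24.0 (rank 582) in replicate 1 and 12.3 (rank 3216) in replicate 2, at 458 and 122 bp upstream. The replicate 2 region that overlaps that of replicate 1 was far weaker, with a signal of 6.17 and rank 26426. The stretch under this summit that lies outside annotated UTRs, II:3502739-3502967 on the plus strand, is shown as the strongest col region with no short RNA gene beside it, and none of the 5 words counted later occurs within 100 bp of the summit.
col-71 region: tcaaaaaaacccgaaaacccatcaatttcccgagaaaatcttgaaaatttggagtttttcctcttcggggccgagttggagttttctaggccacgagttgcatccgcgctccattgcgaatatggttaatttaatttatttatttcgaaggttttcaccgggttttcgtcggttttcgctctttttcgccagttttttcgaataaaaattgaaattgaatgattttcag

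The next col genes by pooled signal mostly had their summits after the start. At col-54 (I:5842709-5844050, plus strand) it lay in the gene's own coding sequence, 1192 bp after the start, with a signal of 31.8 and rank 794. A tRNA-Arg gene inside col-54 (I:5843083-5843155, minus strand) had its start 746 bp away. At the pooled summit the replicates had overlapping regions, at ranks 3453 and 17144. The strongest regions near col-54 were at rank 344 in replicate 1, signal 27.2 and 317 bp after the start, and at rank 1459 in replicate 2, signal 14.5 and 425 bp before it. The region of replicate 1 covered the tRNA gene, whose start was 129 bp from its summit. The high ranks in both replicates therefore came from different places.

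The col-158 gene (V:11829582-11831219, plus strand) had its pooled summit 1416 bp after the start, in its last 221 bp, with a signal of 29.2 and rank 1155. Replicate 1 had a summit 1454 bp after the start (signal 22.8, rank 743) and replicate 2 one 1417 bp after it (signal 11.5, rank 4389), 37 bp apart. Regions of both replicates thus overlapped at this place, near the end of the gene, which nphp-4 on the other strand overlaps. The IDR list did not keep the place, and the −log10 of its q-value in the pooled list was 0.241. The strongest region of replicate 2 near col-158 was another one, 43 bp after the start, with a signal of 12.9 and rank 2538.

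The col-37 gene (V:12166706-12167753, minus strand) had a pair of pooled summits past its end, 1521 and 1322 bp from the start, with signals of 29.8 and 29.0. The strongest regions were at rank 1656 in replicate 1 (signal 19.3) and rank 4827 in replicate 2 (signal 11.2), and their summits were 256 bp apart. At col-107 (IV:1548721-1549714, plus strand; signal 28.9, rank 1202) the summit was 1396 bp after the start but 114 bp from the start of C34H4.5, a gene on the other strand within which col-107 is nested. There the replicates ranked 7596 and 26816.

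Of the named genes, col-153 (V:10949811-10951821, plus strand) had its pooled summit upstream, at 567 bp, with a signal of 28.7 and rank 1256. Its regions ranked 2504 in replicate 1 and 10237 in replicate 2, and they did not overlap. At col-103 (IV:762413-763678, minus strand) the summit was 1578 bp after the start, in an intron of gst-40, a glutathione S-transferase gene on the other strand, with a signal of 27.9 and rank 1425. At this place the overlapping regions ranked 8904 in replicate 1 and 2421 in replicate 2, and the strongest region of replicate 1 near col-103 was 127 bp after the start, at rank 5354.

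The col-36 gene (II:7167511-7168812, minus strand) had its pooled summit in its own coding sequence, just past the end of a collagen repeat. The pooled summit, signal 26.3 and rank 1910, was 1103 bp after the start and 198 bp before the gene's end. Replicate 1 had a summit 1112 bp after the start (signal 21.9, rank 903), and replicate 2 had one 1092 bp after it (signal 8.37, rank 13045), 20 bp away. The strongest region of replicate 2 was past the gene, at 1432 bp (signal 15.4, rank 1079). The stretch below is the coding strand of II:7167679-7167858 from RefSeq's WBcel235 genome, read in frame, with codons of the form GGN, which encode glycine, in capitals. Of its 60 codons 19 are GGN, 13 of these have another GGN 3 codons on, and 0 are stop codons. The last GGN codon that follows another 3 codons before it is codon 46, and the summits fall at codon 50 (pooled), 53 (replicate 1) and 47 (replicate 2).
col-36 coding stretch: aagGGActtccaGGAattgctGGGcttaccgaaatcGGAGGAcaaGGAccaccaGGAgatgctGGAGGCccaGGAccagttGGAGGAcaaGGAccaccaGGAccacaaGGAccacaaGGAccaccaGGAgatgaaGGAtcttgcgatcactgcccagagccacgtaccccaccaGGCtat

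**Figure D4:**
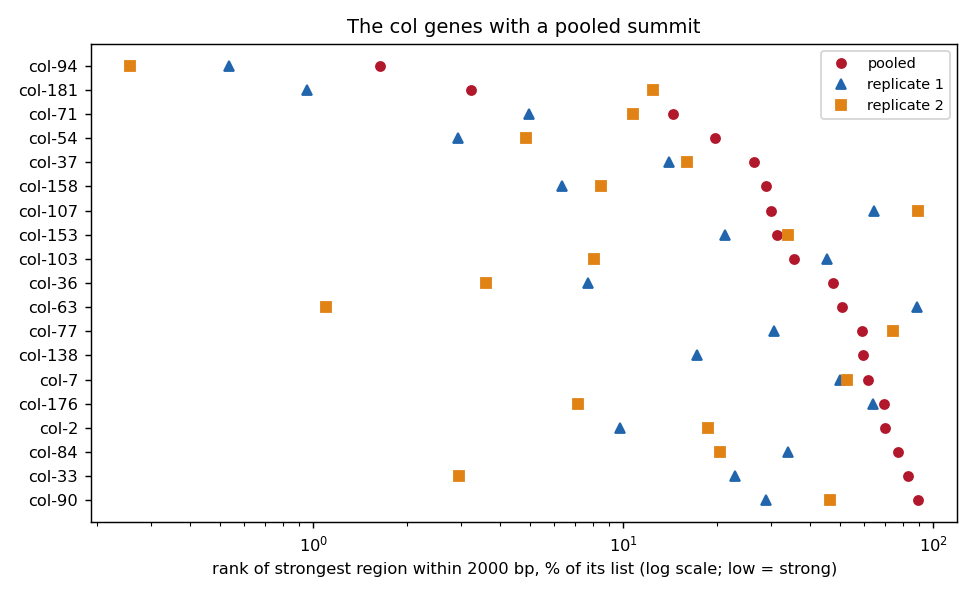
The 19 col genes with a pooled summit, with the rank of their strongest region within 2000 bp as a percentage of its list (log scale, low is strong) in the pooled, replicate 1 and replicate 2 lists. The ranks of col-94 are the lowest in all 3 lists, and those of the other genes are spread widely between lists; col-138 has no region in replicate 2.

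Among the col genes named by the worse of their replicate ranks, col-33, col-169, col-38 and col-119 had no region better than rank 885 in either replicate. The strongest regions near col-33 were at rank 2686 in replicate 1, 1235 bp upstream, and at rank 885 in replicate 2, 337 bp after the start. Near col-169 the ranks were 4469 and 1826, near col-38 they were 1232 and 4601, and near col-119 they were 4644 and 2559. The col-169 summits lay on opposite sides of the start, 840 bp before and 1225 bp after it, and those of col-119 at 597 and 1295 bp after it. At these 3 the strongest regions of the replicates were not at 1 place, and the same holds for col-38, whose strongest summits were 1555 and 37 bp after the start. At col-38 a weaker region of replicate 1, with its summit 200 bp after the start and rank 6143, did overlap the replicate 2 region, by 153 bp.

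Upstream of the start, col-2 had the pooled summit nearest to a col promoter, 174 bp from the start, with a signal of 24.5 and rank 2804. It is named, as is col-63, after its values were seen. Replicate 1 had a summit 160 bp upstream, with a signal of 20.8 and rank 1150, while the overlapping region of replicate 2 was 312 bp upstream, with a signal of 5.94 and rank 28346, close to the bottom of that list. A piRNA gene start, 21ur-14295, was 142 bp from the pooled summit. The 250 bases before the col-2 start, IV:10085452-10085701 on the minus strand, end next to the start.
col-2 upstream: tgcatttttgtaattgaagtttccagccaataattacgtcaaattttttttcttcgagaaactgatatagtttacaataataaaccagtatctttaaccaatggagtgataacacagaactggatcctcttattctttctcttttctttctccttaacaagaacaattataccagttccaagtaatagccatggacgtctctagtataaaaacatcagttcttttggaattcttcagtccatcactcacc

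At col-63 (I:8243694-8244963, minus strand) the pooled summit, signal 26.1 and rank 2036, was 678 bp upstream, in a 3' UTR of the homeobox gene ceh-8. The start of an unclassified non-coding RNA gene, ZK265.11, was 19 bp away. Replicate 2 ranked this place 329, with a signal of 19.8. The overlapping region of replicate 1 ranked 10401 of 11750, with a signal of 12.7. Of all col genes, col-63 had the second best rank in replicate 2, after col-94.

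Some of these summits lay closer to another start, of a protein-coding or short RNA gene, than to the col start. The col start was the nearest protein-coding start for at least 1 pooled summit at 14 of the 156 genes (8.97%, against 11.1% of all protein-coding genes). Among genes with a pooled summit that is 14 of 19, against 2214 of 3097 over all protein-coding genes, so col genes hardly differed in this. At 10 of the 19 col genes with a pooled summit, a non-coding gene of at most 300 bp had its start closer to the strongest summit than the col start was, against 21.3% of all protein-coding genes with a pooled summit. Those 10 had an snRNA (col-94), a tRNA (col-181, col-54), a piRNA (col-138, col-7, col-2) or another ncRNA (col-37, col-158, col-63, col-84) closer. Closer means only nearer than the col start, which was often far away. The short RNA start was 19 bp from the summit at col-63, 31 bp at col-94 and 37 bp at col-181. It was 142 bp away at col-2, 275 bp at col-138, 555 bp at col-84 and 702 bp at col-7. At col-54 it was 746 bp away, at col-158 1262 bp and at col-37 1291 bp. With tRNA, snoRNA, snRNA, rRNA and miRNA genes alone it was 3 of 19 (15.8% against 6.36%). Among the 6 col genes with a pooled summit within 1000 bp of the start, 3 had a closer short RNA start, against 15.4% of all protein-coding genes with such a summit. The distance cut itself fell in a gap: the farthest pooled summits inside it were at 1990 bp (col-176, signal 24.5) and 1976 bp (col-94), and the nearest outside were at 2428 bp (col-108, signal 24.4) and 2806 bp (col-38, signal 26.0).

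The place of the summits relative to the gene differed from that of other genes. Over all protein-coding genes the 500 bp before the start held the most summits, 4.27 per 100 genes in the pooled list, 8.68 in replicate 1 and 19.3 in replicate 2. Over col genes that bin held 1.28, 8.33 and 12.2, and the highest bin was instead 1000 to 1500 bp after the start, with 5.13 per 100 genes in the pooled list, 14.1 in replicate 1 and 19.9 in replicate 2. All protein-coding genes had 1.60, 5.62 and 13.7 there, and the 3522 genes with a length between the quartiles of the col genes had 1.99, 5.59 and 14.9. The bins were drawn after the values were seen, and the pooled list is made from the same replicates. The median length of a col gene was 1220 bp (quartiles 1056 and 1591), against 2027 bp for all protein-coding genes, so this bin falls around the end of a typical col gene.

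**Figure D5:**
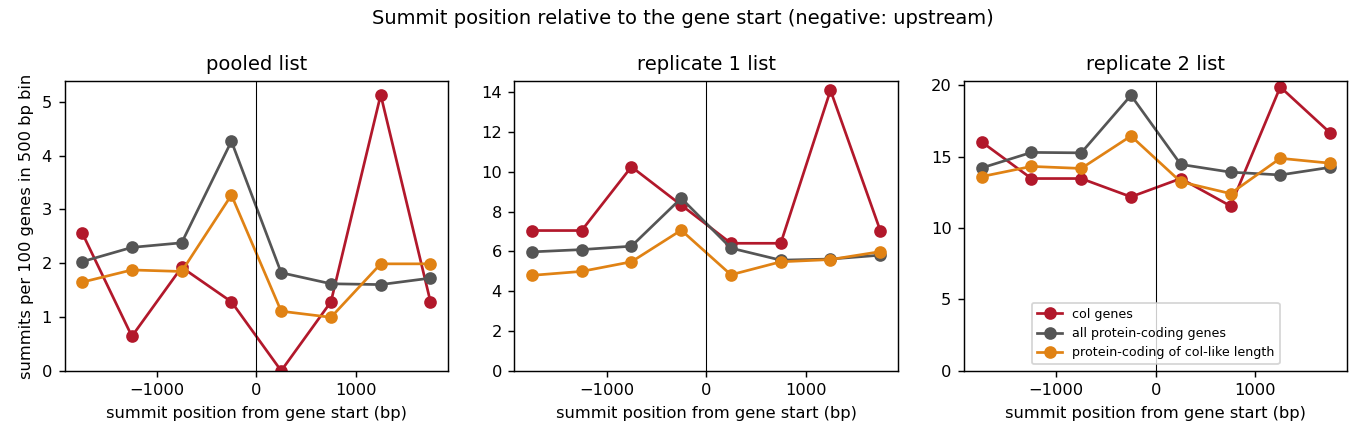
Summits per 100 genes in bins of 500 bp from the gene start (negative is upstream), for col genes (red), all protein-coding genes (grey) and protein-coding genes of col-like length (orange), in the pooled and replicate lists. For col genes the highest point is 1000 to 1500 bp after the start in each list (5.13, 14.1 and 19.9), where all protein-coding genes have 1.60, 5.62 and 13.7.

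The summits in that bin lay near 8 col genes in the pooled list, which were col-36, col-37, col-54, col-90, col-107, col-138, col-158 and col-181. They lay near 21 col genes in replicate 1 and 30 in replicate 2, and 8 genes had one in both replicates, namely col-36, col-37, col-54, col-102, col-107, col-113, col-158 and col-181. These numbers of genes were not counted over all protein-coding genes. In replicate 1, 11 of the 22 summits in the bin were within 250 bp of the gene's end and 9 were past it. In replicate 2, 16 of 31 were within that distance and 15 past it. Closeness to the end was not counted for other genes in this bin. The bin falls around the end of a typical col gene, so these end counts are by themselves no result about col genes. Counted from the annotated end, 6 col genes had a pooled summit within 250 bp (3.85% against 2.88% of all protein-coding genes), 19 had one in replicate 1 (12.2% against 6.73%) and 29 in replicate 2 (18.6% against 17.95%).

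Close to the start, col genes had fewer regions than other genes in the pooled and replicate 2 lists. Within 500 bp of the start 2 had a pooled summit (1.28% against 5.95%), col-71 and col-2, and 35 had one in replicate 2 (22.4% against 31.1%). In replicate 1 the share was near the background, as given above. In the IDR list 0 col genes had a summit within 1000 bp, against 0.941% of all protein-coding genes. That share would amount to between 1 and 2 of the 156 genes, so a count of 0 shows no depletion. Of the 22 pooled summits near col genes 10 were upstream of the start (45.5%, Wilson 95% interval 26.9 to 65.3), against 61.8% of the gene and summit pairs of all protein-coding genes.

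The regions near col genes lay in coding sequence more often than those near other genes. In the pooled list 9 of 22 summits were in coding exons (40.9%, against 16.7% of summits near any protein-coding gene), 4 of them inside a col gene. In replicate 1 it was 38 of 98 (38.8% against 25.6%), 26 of them inside a col gene, and in replicate 2 it was 60 of 172 (34.9% against 22.4%), 36 of them inside one. Near genes of col-like length the coding shares were 20.0% (pooled), 29.5% (replicate 1) and 27.7% (replicate 2), between those of all genes and of col genes. The sequence within 2000 bp of the col starts was itself richer in coding bases, 38.8% against 31.4%, and in G and C, 39.7% against 35.7%. Genes of col-like length had 35.75% coding bases and 35.9% G and C there. The summit windows had a median G and C content of 41.3% against 37.8% in the pooled list, 38.6% against 37.3% in replicate 1 and 36.6% against 34.3% in replicate 2. The part of coding density and base composition in the position of the summits was not tested. Of the 156 genes 55 overlap another protein-coding gene and 22 are nested in one, so some of the coding exons belong to neighbours.

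At IDR summits near any protein-coding gene, the words GAGAGA and CACACA and CGTCTC and ACGCAG were each in 34.2% to 48.7% of windows. Windows reached 100 bp to each side of the summit. In the IDR list the col-181 window held GAGAGA and CGTCTC, and the col-94 window held none of the words. Pooled summits near any protein-coding gene had each of the same words in 11.5% to 19.7% of windows. Those near col genes had them in 4.55% to 9.09%. The lower shares in the pooled list were thus not particular to col genes. These words, and CAGGTA or CAGGTG, a form of the word bound by ZEB-type zinc fingers, were searched on both strands, with overlaps between words allowed. GAGAGA was in 2 of the 22 pooled summit windows near col genes (9.09%, against 19.7% of windows near any protein-coding gene), those of col-181 and col-84. The word CACACA was in 1 (4.55% against 14.8%), the weaker col-94 window, CGTCTC in 2 (9.09% against 13.5%) and ACGCAG in 1 (4.55% against 11.5%). The ZEB-type word was in 1 (4.55% against 8.53%), that of col-84. The order was not kept for all words in the replicates. In replicate 1, GAGAGA was in 15.3% against 14.6% and the ZEB-type word in 13.3% against 10.7%, and in replicate 2, CGTCTC was in 8.72% against 6.36% and the ZEB-type word in 9.88% against 9.44%. In windows of 200 bp to each side of the pooled summits, the ZEB-type word was in 18.2% against 16.8%, so its direction turned with the window. With 22 windows the pooled values are counts of 1 or 2, and the window at the col-94 IDR summit held none of the 5 words.

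By chromosome, col genes are most numerous on IV, with 41, and least on III, with 12. The share with a pooled summit was 7.41% on X, where 2 of 27 col genes had one against 16.95% of all protein-coding genes there, and 14.3% on I (3 of 21 against 18.1%). On II it was 16.7% (4 of 24 against 13.6%), on III 16.7% (2 of 12 against 19.8%), on IV 12.2% (5 of 41 against 15.2%) and on V 9.68% (3 of 31 against 12.4%). On II alone the col share was above that of the other genes of the chromosome, and each share rests on 2 to 5 genes.

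Genes that work beside the col family had no IDR summit in the lists chosen for them. Of 19 other cuticle collagen genes, named for the body shape of their mutants, 4 had a pooled summit (21.1%, against 15.5% of all protein-coding genes), rol-8 (signal 34.8), sqt-1 (33.9, 24 bp after the start), dpy-4 (26.6) and lon-3 (23.8). Their IDR count was 0 of 19, and 10 (52.6% against 38.7%) and 14 (73.7% against 71.3%) had a summit in replicates 1 and 2. The pooled summit was 1508 bp from the rol-8 start but 56 bp from an ncRNA start. At dpy-4 it was 902 bp from the start but 86 bp from a piRNA start. At sqt-1 and lon-3 no short RNA start was closer, but the nearest protein-coding start at lon-3 was that of ZK836.3. Of 13 genes for collagen modification and cross-linking 4 had a pooled summit (30.8% against 15.5%). They were dpy-11, a thioredoxin-like protein gene (signal 30.7), dpy-18, a prolyl 4-hydroxylase gene (28.8), skpo-1, a peroxidase gene (28.8), and pdi-2, a disulphide isomerase gene (26.1). In replicates 1 and 2, 7 (53.8% against 38.7%) and 10 (76.9% against 71.3%) of the 13 had a summit. No short RNA start was closer to the pooled summit than the gene's own at dpy-11, dpy-18, skpo-1 or pdi-2. Of 4 basement membrane and other collagen genes 1 had a pooled summit (25% against 15.5%). It was let-2, which encodes a type IV collagen chain (signal 26.0). Its summit was 582 bp from the let-2 start but 259 bp from an ncRNA start. These lists are small, and 1 gene moves their shares by several percentage points.

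Of 24 moulting and epidermal regulator genes 6 had a pooled summit (25% against 15.5% of all protein-coding genes). In replicate 1 there were 13 with a summit (54.2% against 38.7%) and in replicate 2 there were 22 (91.7% against 71.3%). The strongest were noah-1, which encodes an apical matrix protein (signal 42.4), and the transcription factor genes bed-3 (33.2), blmp-1 (31.9) and nhr-25 (29.2). The noah-1 summit, 710 bp upstream, ranked 308 in the pooled list and so was above all but 2 of the col genes. An ncRNA start was closer to the summit than the gene's own at noah-1 (114 bp), bed-3 (851 bp) and nhr-25 (113 bp), but not at blmp-1. Of 35 cuticlin genes, which encode other structural cuticle proteins, 3 had a pooled summit (8.57% against 15.5%), cutl-28 (signal 29.3), cutl-2 (27.9) and cutl-16 (24.1). The cutl-28 summit was 1425 bp from the gene start but 9 bp from a tRNA start. That of cutl-16 was 1843 bp from the gene start but 99 bp from an ncRNA start. At cutl-2 no short RNA start was closer. In replicate 1 the cuticlin share was 22.9%, against 48.1% for col genes and 38.7% for all protein-coding genes.

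Over all protein-coding genes 1.46% had an IDR summit and 15.5% a pooled one. Among other large families, 2 of 269 nuclear hormone receptor genes had an IDR summit (0.743%), nhr-1 (signal 74.3) and nhr-14 (47.7). A pooled one was near 32 of them (11.9%), among them nhr-116 (33.4) and nhr-18 (31.0). Of 72 histone genes 3 had an IDR summit (4.17%), his-37, his-35 and his-41. All 3 came from 1 region with a signal of 93.4 that lies 89 bp upstream of his-37. A pooled summit was near 6 histone genes (8.33%), among them his-24 (44.2). In the pooled list the col share of 12.2% was thus between those of these families and of all protein-coding genes. In replicate 2 histone genes had 31.9%, against 69.9% for col genes and 71.3% for all protein-coding genes.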

How the data were processed

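ChIP-seq peak lists of 2 biological replicates, per the labels, were analysed. The authors' deposited listings name, for a replicate list, its alignments plus 1 file of unstated role, for the pooled list both replicates, and for the IDR list the other 3 lists. Aligner, caller, IDR threshold and read depth were not given in the sources used here. Signal values per region and the −log10 of a q-value are as deposited by the authors. The deposited ce10 lists were not placed. The sequence at the col-94 peak is not reported here.

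Positions are 1-based on WBcel235 (ce11) with Ensembl 115. All chromosome names matched, and 0 regions ended beyond a chromosome. A gene start is the outermost annotated 5' end, and 1 summit may count for several genes. Short RNA genes are non-coding genes of at most 300 bp. The share of 32-base words found more than once in the genome was counted over each gene and summit window. No test was run. The named genes were those with an IDR summit, the 10 with the strongest pooled summit and the 10 with the best worse replicate rank; of other lists, those with an IDR summit and the 4 strongest pooled ones. Members and lists were chosen with earlier results of these data known. Placing was tested on simulated summits: of 200 planted, 133 lay within 2000 bp of their gene start and 133 were recovered. Python 3.11.15, numpy 2.4.6, pandas 2.3.3, scipy 1.17.1 and matplotlib 3.10.9 were used.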

Additional observations from a re-analysis of the deposited data

How the results depend on the processing

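No paired analysis was possible because both replicates belong to a single group. Of 62 alternative values, 29 were within 1.5 times the main count or the main share's interval and 33 were not; taking the region midpoint, any transcript start or the nearest start alone left the 4 list counts within it. The cause of a change was not tested beyond what the setting removes. Within 500 bp of the start the counts of col genes were 0 (IDR), 2 (pooled), 21 (replicate 1) and 35 (replicate 2), and within 1000 bp 0, 6, 45 and 66. The shares within 1000 bp were 0%, 3.85%, 28.8% and 42.3%, against 0.941%, 9.50%, 23.7% and 49.5% of all protein-coding genes. Within 5000 bp they were 40 in the pooled list (25.6% against 30.1%) and 117 in replicate 1 (75% against 66.9%). With the stronger 50% of each list they were 1, 10, 38 and 64. Those shares were 0.641%, 6.41%, 24.4% and 41.0%, against 0.741%, 8.58%, 21.8% and 45.5%. With a q-value of 0.1 or less the counts were 2 (pooled, 1.28% against 2.17%), 3 and 27. No list was rebuilt with 1 replicate left out: the strongest regions of the other replicate, as many as in the IDR or pooled list, stood in. In place of the IDR list the count was then 1 to 2. In place of the pooled list replicate 1 had 27 and replicate 2 had 26, above the main 19. Those shares were above that of all protein-coding genes (17.3% against 15.6% and 16.7% against 15.4%). The counts of 27 and 26 enter the 62 values under the replicate lists as well, so they are 1 check and not 2. From the gene end, an alternative chosen after seeing the data, they were 6, 19 and 29. Overlap between replicates fell from 27 genes to 13 with summits within 100 bp, 12 within 1000 bp of the start, 2 among as many regions as the pooled list and, chosen after seeing the data, 11 with the strongest region of each replicate. The col share was above the background in the main setting (17.3% against 14.7%), with overlap of 50% of the shorter region (14.1% against 11.6%) and within 100 bp (8.33% against 8.26%). It was below it within 1000 bp (7.69% against 8.99%), among as many regions as the pooled list (1.28% against 3.13%) and with the strongest regions (7.05% against 8.78%). Closer short RNA starts numbered 3 with the narrower RNA types and 3 within 1000 bp. Within 1000 bp, 5 genes were the nearest start (3.21%, against 7.84% of all protein-coding genes). Fewer col genes had a pooled summit there at all, 3.85% against 9.50%. Of 7 summits within 1000 bp, 71.4% were upstream, against 65.9% of all pairs, so the upstream share was then above that of other genes. In windows of 50 bp, ACGCAG and the ZEB-type word were in 0% of windows, and in windows of 200 bp the ZEB-type word was in 18.2% against 16.8%.

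Read depth is unknown, and identical RNA gene copies and col genes with near-identical stretches limit where reads can be placed.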

Other observations

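In the 300 bases from 250 before to 50 after the start, GAGAGA was in 42 of 156 col promoters (26.9%), against 21.8% of all 19973. CACACA was in 16.0% against 15.5%, CGTCTC in 14.7% against 11.2%, ACGCAG in 10.3% against 8.24%, and CAGGTA or CAGGTG in 13.5% against 15.3%.

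Col genes differ in how much of their sequence is repeated in the genome, whether in another place or within the gene itself. In 22 of the 156, over 50% of the 32-base words occur more than once in the genome, and in 51 none does. Of the 26 col genes with no region in any list 6 were of the first kind (23.1%), against 16 of the 130 others (12.3%). How the authors treated reads with several matches is not given in the sources used here, and the part of such reads in the counts was not tested. Just outside the distance used, col-83 had a pooled summit 2849 bp after its start with a signal of 35.6 and rank 507, above every col gene inside it other than col-94 and col-181. The gene col-93 is 4039 bp from the col-94 IDR summit and is the third col gene within 5000 bp of an IDR peak. The adult cuticle collagen gene col-19 had 1 region, in replicate 2, at rank 22380. The transmembrane collagen gene col-99, the longest of the family at 9946 bp, also had regions in replicate 2 alone, the stronger at rank 9043.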
